A study of Mus musculus with 8 samples.

Results

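Long noncoding RNAs are transcripts that act without being translated, and 9 of them that are best known from the nucleus or from imprinted chromosome domains are described here: Neat1, Malat1, Tug1, Meg3, Rian, H19, Kcnq1ot1, Gas5 and Snhg12. They were chosen by name, and each matched 1 row of the 24341 genes in the deposited table. Of the 9, 7 had a mean of at least 1 FPKM over all libraries and were tested, while Meg3 and Kcnq1ot1 lay under that level. FPKM values scale the fragments of a gene by transcript length and by the fragments mapped in the library, so levels can be compared between genes of different length.

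The Cre-positive group held 4 libraries of ventricular lysate in which a cardiomyocyte-specific Cre recombinase was meant to delete Med13 and Med13l, and the Cre-negative group held 4 libraries without Cre. All 8 came from male mice of 12 weeks on the Med13/13L fl/fl background that were given tamoxifen in chow, and the study's design text places sampling 4 weeks after tamoxifen. Both groups therefore carried the floxed alleles and received tamoxifen, and no Cre-positive mice without floxed alleles are part of the comparison, so Cre activity and the deletion cannot be told apart. The labels do not name the Cre line. Nothing in the labels says that each library came from a separate mouse, so p-values measure the spread between these samples. The library names of Cre-negative 1 and Cre-negative 2 share the stem negcre-2M, and whether both came from 1 mouse is not stated. With these libraries averaged as 1 sample, an alternative chosen after seeing the data, Neat1 (log2 change -1.35, limma adjusted p = 3.31e-05) and Tug1 (0.31, adjusted p = 0.00712) were still called. Med13 and Med13l are paralogous proteins that tether the kinase module to Mediator, a large coactivator of RNA polymerase II transcription.

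Neat1 is the scaffold of paraspeckles, nuclear bodies that hold RNA-binding proteins and some RNAs. Malat1, transcribed from the same stretch of chromosome 19, gathers in nuclear speckles, which are rich in splicing factors. Meg3 and Rian belong to the Dlk1-Dio3 domain and H19 to the Igf2 domain, and all of them are made from the maternal chromosome, while Kcnq1ot1 is made from the paternal chromosome antisense to Kcnq1 and is needed to silence neighbouring genes in mouse tissues. Gas5 and Snhg12 are host genes whose introns carry small nucleolar RNAs (snoRNAs), and Tug1 was named for its rise in retinal cells treated with taurine.

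Neat1 and Malat1 share an element near their 3′ ends that folds into a triple helix and stands in for a poly(A) tail. It is shown because the levels of these neighbouring RNAs are set against each other below. The last 400 bases of Neat1-201 and Malat1-201 share 3 stretches of at least 10 bases in the same order: TTTCTTTTCCTGA, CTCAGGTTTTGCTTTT and AAAAAGCAAAA. On the transcript strand, the first is in 0.0247% and the third in 0.436% of the 141767 transcripts of the GENCODE annotation of GRCm38. The second, and all 3 in this order at most 150 bases apart, are in 0.00141%, which are the 2 transcripts the stretches were read from. The Malat1 element lies at chr19:5795982-5796065 (minus strand, 292 bases before the annotated 3′ end) and the Neat1 element at chr19:5824708-5824797 (minus strand, at the 3′ end). Capitals mark the shared letters, and each element is written 5′ to 3′.

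Neat1-201: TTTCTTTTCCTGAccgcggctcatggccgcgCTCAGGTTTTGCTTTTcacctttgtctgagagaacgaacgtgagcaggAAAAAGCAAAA

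Malat1-201: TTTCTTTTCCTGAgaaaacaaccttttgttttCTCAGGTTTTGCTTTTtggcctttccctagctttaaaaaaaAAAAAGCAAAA

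H19 carries the microRNA miR-675 in its first exon. Its mature arms are shown because the hairpin has a row of its own in the table, described with H19. The sequences are those of RefSeq for GRCm38.p6 (minus strand, chr7:142577112-142577133 for the 5p arm and chr7:142577078-142577099 for the 3p arm), with the seed, bases 2 to 8, in capitals. The arms have different seeds.

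mmu-miR-675-5p: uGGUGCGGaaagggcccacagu

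mmu-miR-675-3p: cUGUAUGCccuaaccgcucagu

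In units of 1000000 fragments, estimated depth ran from 4.49 to 23.4 in Cre-positive libraries and from 5.50 to 15.2 in Cre-negative libraries. Med13 was lower in Cre-positive libraries (8.13 ± 0.554 FPKM) than in Cre-negative libraries (12.0 ± 2.23 FPKM; SD, n = 4 each), as was Med13l (2.52 ± 0.113 against 4.92 ± 0.814 FPKM). Neither gene's groups overlapped. The ribosomal precursor Rn45s was above 100 FPKM in 5 libraries (Cre-positive 1 and 2, Cre-negative 1, 3 and 4) and below it in the other 3 (Cre-positive 3 and 4, Cre-negative 2). Values within these high-Rn45s and low-Rn45s sets are given beside the results. Estimated depth, in the units above, was 15.2 to 23.4 in low-Rn45s libraries and 4.49 to 8.67 in high-Rn45s libraries. Rn45s level and depth therefore cannot be told apart between the sets. The low-Rn45s set holds 1 Cre-negative library, so its values are given with no test. Cardiomyocyte markers were lower: 7 of 8 were called lower, and their sum was 18615 to 20355 FPKM in Cre-positive libraries, against 55638 to 60764 FPKM in Cre-negative libraries. Among other cell type markers, 6 of 10 fibroblast genes were called higher and 1 lower, 5 of 10 smooth muscle and pericyte genes higher and 1 lower, 6 of 9 macrophage genes lower, and 1 of 10 endothelial genes higher and 3 lower. None of 5 erythroid genes was called.

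Groups were compared with limma on log2(FPKM + 1), with p adjusted by the Benjamini-Hochberg method over 11688 genes, and changes with an adjusted p under 0.05 are those called. Among the 7 tested RNAs, 1 was called higher (Tug1), 1 lower (Neat1) and 5 were not called. Over all tested genes 39.2% were called, 19.7% higher and 19.4% lower, so 2 of 7 is close to that background. The same shares are the background for the counts of called genes in the lists and chromosome windows below. The groups did not overlap for 3 of the 9 RNAs: Tug1 and Meg3 were higher and Neat1 lower in every Cre-positive library. Of the 7 tested RNAs these are Tug1 and Neat1, beside 38.0% of all tested genes whose groups did not overlap. Meg3 lay under the level filter, and the share over the whole table is given with it below. Within the Cre-positive group, Cre-positive 2 had the highest value of 6 RNAs and Cre-positive 3 the lowest value of 5. Within the Cre-negative group, Cre-negative 3 had the highest value of 4 RNAs and the lowest of 3.

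**Figure D1:**
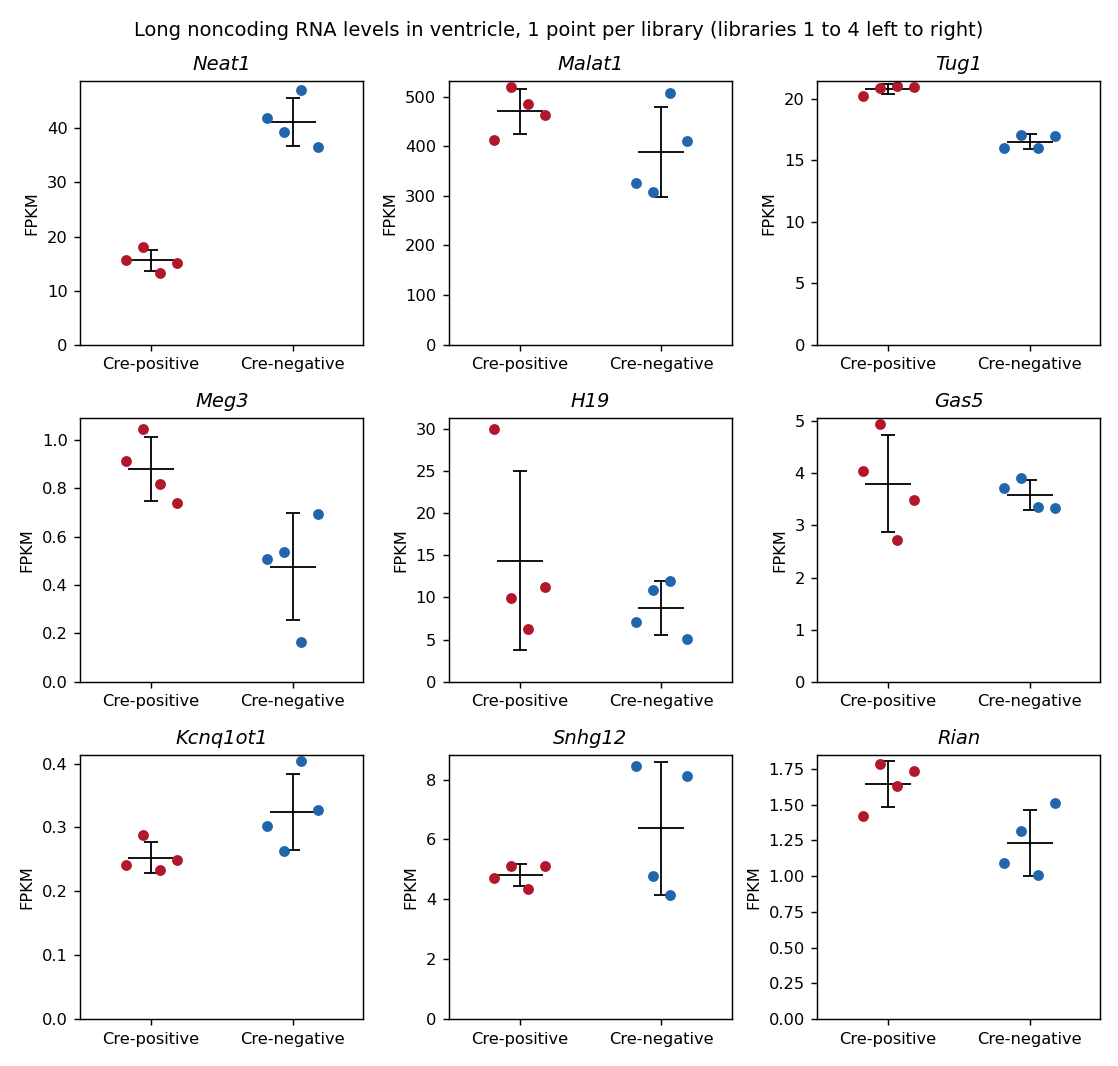
FPKM of the 9 RNAs in each library, with Cre-positive libraries (red) left of Cre-negative libraries (blue); horizontal lines are group means and bars SD (n = 4). Neat1 sits between 13.3 and 18.1 FPKM in Cre-positive libraries and between 36.5 and 47.1 FPKM in Cre-negative libraries, and H19 reaches 29.9 FPKM in 1 Cre-positive library.

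Neat1 (chr19:5824710-5845480, mm10) had 15.7, 18.1, 13.3 and 15.2 FPKM in Cre-positive libraries 1 to 4, against 41.9, 39.3, 47.1 and 36.5 FPKM in Cre-negative libraries 1 to 4. All 4 Cre-positive values were under all 4 Cre-negative values, with a wide gap between the groups. The mean was 15.6 ± 1.99 FPKM in Cre-positive and 41.2 ± 4.50 FPKM in Cre-negative libraries (SD, n = 4 each), a ratio of 0.378. The log2 change was -1.35 (SE 0.107, limma adjusted p = 7.08e-06), and 324 tested genes had a larger change in either direction. Within high-Rn45s libraries it was -1.25 and within low-Rn45s libraries -1.41. In a bulk lysate, fewer cells of a type and less RNA per cell cannot be told apart, and the part of the lower cardiomyocyte markers in this difference was not tested.

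The Neat1 value joins transcripts of unequal length. The GENCODE annotation lists 4, of 711 to 20771 bases, and the longest spans the whole locus. The short and long forms cannot be told apart in 1 value per gene. If all fragments came from the longest transcript, the level rests on 1465 fragments in the library with the fewest, and if all came from the shortest, on 50.2.

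Malat1 (chr19:5795690-5802671) was the most abundant of the 9 RNAs, and its mean level was rank 186 in the whole table. It had 412, 520, 485 and 463 FPKM in Cre-positive libraries, against 327, 309, 508 and 410 FPKM in Cre-negative libraries. The groups overlapped: Cre-negative 3 exceeded 3 of the 4 Cre-positive libraries. Means were 470 ± 45.2 FPKM in Cre-positive and 388 ± 91.3 FPKM in Cre-negative libraries. The log2 change of 0.30 was not called (SE 0.150, 95% interval -0.03 to 0.63, limma adjusted p = 0.143). Without Cre-negative 3 it was 0.44 and was called (adjusted p = 0.0163). It was 0.18 within high-Rn45s libraries and 0.62 within low-Rn45s libraries, whose 1 Cre-negative library had the lowest Malat1 value of all 8. With every library scaled to 1 sum it was 0.61 and was called (adjusted p = 0.00957), but that scaling put the median of all tested genes at 0.26, so Malat1 stood 0.35 above it.

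The 2 loci are 22038 bases apart, and the ratio of Neat1 to Malat1 does not change when all genes of a library are scaled by 1 factor. Neat1 stood at 3.81%, 3.48%, 2.74% and 3.27% of Malat1 in Cre-positive libraries, against 12.8%, 12.7%, 9.27% and 8.89% in Cre-negative libraries. The groups did not overlap, with a wide gap between the highest Cre-positive and the lowest Cre-negative ratio. The log2 ratio was -4.92 ± 0.200 in Cre-positive and -3.21 ± 0.287 in Cre-negative libraries (SD, n = 4 each), a difference of -1.71 (SE 0.175). The exact two-sided permutation p was 0.0286, the smallest that 70 assignments allow, and 0.0857 after Benjamini-Hochberg adjustment over the 3 ratios. Within high-Rn45s libraries the difference was -1.48. With Cre-negative 1 and 2 averaged it was -1.62, and the p of 0.0571 was the smallest that this smaller design allows.

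**Figure D2:**
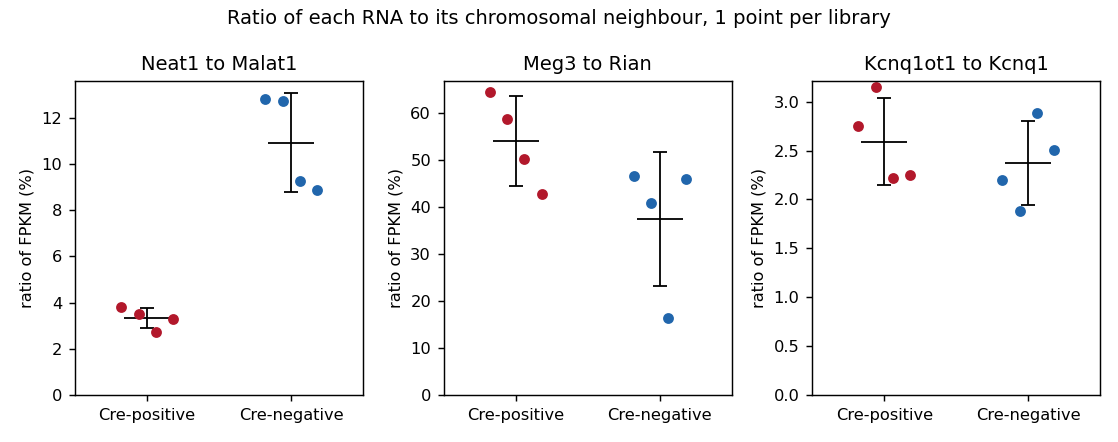
Ratio of FPKM, in percent, of Neat1 to Malat1, Meg3 to Rian and Kcnq1ot1 to Kcnq1 in each library, with Cre-positive (red) left of Cre-negative (blue); lines are means of the percentages and bars SD (n = 4). Neat1 to Malat1 runs from 2.74% to 3.81% in Cre-positive and from 8.89% to 12.8% in Cre-negative libraries, while the groups overlap for the other 2 ratios.

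Calls among other genes of the region ran in both directions, as they did over all tested genes. Of 24 tested genes within 250 kb of the Neat1 locus, a window set after values were seen, 5 were called higher and 2 lower. Over all tested genes 19.7% were called higher and 19.4% lower. The nearest, Frmd8, lies 5494 bases away and had 2.98 ± 0.704 FPKM in Cre-positive and 2.54 ± 0.465 FPKM in Cre-negative libraries (limma adjusted p = 0.429). Ltbp3, which encodes a protein that binds latent TGF-beta, was called higher, with 9.63 ± 0.441 FPKM in Cre-positive and 3.62 ± 0.626 FPKM in Cre-negative libraries. Rela, a subunit of NF-kappaB, was called higher (log2 change 0.40), and Mrpl49, a mitochondrial ribosomal protein, was called lower (-0.62). Neat1 had the lowest log2 change in the window.

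**Figure D3:**
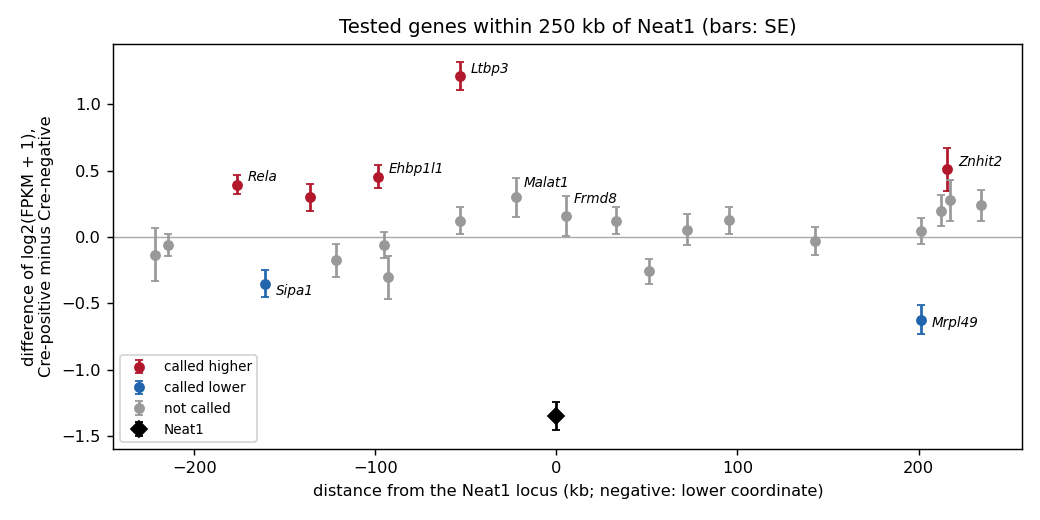
Log2 change (difference of log2(FPKM + 1), Cre-positive minus Cre-negative, with SE) of the 24 tested genes within 250 kb of Neat1 against distance from its locus in kb. Neat1 lies at -1.35, Malat1 at 0.30 and Ltbp3 at 1.21; 5 genes were called higher and 2 lower.

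The genes whose pattern over the 8 libraries was most like that of Neat1 were Tcea3, Tmem65 and Zc3h8, out of 11568 compared. The measure was the root mean square difference of log2(FPKM + 1) after each gene was centred, and it was 0.119, 0.121 and 0.122. Tcea3, a transcription elongation factor of the TFIIS family, averaged 36.1 ± 3.02 FPKM in Cre-positive and 102.6 ± 17.4 FPKM in Cre-negative libraries. Tmem65 averaged 38.3 ± 1.10 FPKM in Cre-positive and 97.0 ± 6.87 FPKM in Cre-negative libraries, and Zc3h8 averaged 2.55 ± 0.591 FPKM in Cre-positive and 7.36 ± 1.38 FPKM in Cre-negative libraries.

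Most genes for proteins of paraspeckles and nuclear speckles were not called. Of 20 paraspeckle protein genes, 1 was called higher and 2 lower, and the median log2 change was -0.10, beside -0.01 over all tested genes. Nono, a core protein that stabilises long Neat1, was called higher with 77.2 ± 9.24 FPKM in Cre-positive and 59.2 ± 2.97 FPKM in Cre-negative libraries (log2 change 0.37, limma adjusted p = 0.00821). Hnrnph1, an RNA-binding splicing regulator, was called lower at 35.1 ± 4.27 FPKM in Cre-positive and 55.2 ± 2.90 FPKM in Cre-negative libraries (-0.64, adjusted p = 3.33e-04). Its relative Hnrnph3 was also called lower (-0.52, adjusted p = 0.0219).

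Sfpq, the partner of Nono, was not called, with 14.3 ± 2.01 FPKM in Cre-positive and 16.9 ± 4.54 FPKM in Cre-negative libraries (adjusted p = 0.385). Sfpq was chosen after its values were seen.

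Of 21 nuclear speckle protein genes, 1 was called higher and none lower (median log2 change -0.04). With every library scaled to 1 sum, 11 were called higher and none lower. The called gene was Srsf2, a splicing factor used as a speckle marker, with 41.4 ± 5.78 FPKM in Cre-positive and 32.5 ± 2.71 FPKM in Cre-negative libraries (0.33, limma adjusted p = 0.0313). Srsf5 and Ddx39b, the most abundant of the list, were not called (log2 changes -0.06 and 0.08).

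Tug1 (chr11:3639785-3648814) had 20.2, 20.9, 21.1 and 21.0 FPKM in Cre-positive libraries, against 16.0, 17.04, 16.0 and 16.99 FPKM in Cre-negative libraries. The groups did not overlap, and the values within each group lay close together. Means were 20.8 ± 0.399 FPKM in Cre-positive and 16.5 ± 0.592 FPKM in Cre-negative libraries (SD, n = 4 each). The log2 change was 0.32 (SE 0.0658, limma adjusted p = 0.00353), and 4579 tested genes had a larger change in either direction. It was 0.31 within high-Rn45s and 0.29 within low-Rn45s libraries.

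The residual SD of Tug1 was 0.0393 on the log2 scale, beside a median of 0.156 and quartiles of 0.114 and 0.213 over all tested genes. Of the 7 tested RNAs, 5 had a residual SD above that median. H19 had 0.721, the largest of the 7, followed by Snhg12 with 0.323 and Malat1 with 0.253. Rian, at 0.121, was the other RNA under the median.

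**Figure D4:**
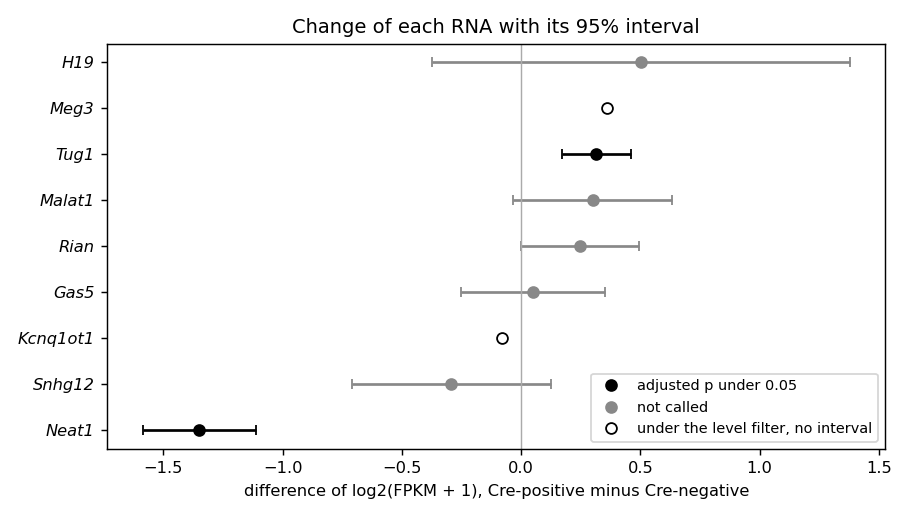
Difference of log2(FPKM + 1), Cre-positive minus Cre-negative, of each of the 9 RNAs, with its 95% interval for the 7 tested ones; filled black points passed an adjusted p of 0.05 and open points lay under the level filter. Neat1 at -1.35 and Tug1 at 0.32 passed, and the interval of H19 runs from -0.38 to 1.38.

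Genes most like Tug1 by the same measure were Trappc12 (0.0359), Mfsd1 (0.0392) and Fam207a (0.0407). Trappc12, part of a vesicle-tethering complex, averaged 18.1 ± 0.455 FPKM in Cre-positive and 14.3 ± 0.722 FPKM in Cre-negative libraries. The nearest tested gene to Tug1 is Morc2a, 680 bases away, with 6.73 ± 0.229 FPKM in Cre-positive and 7.81 ± 0.634 FPKM in Cre-negative libraries (limma adjusted p = 0.0904, not called). Of 12 tested genes within 250 kb of Tug1, 4 were called higher and 2 lower.

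H19 (chr7:142575530-142578146) had 29.9, 9.98, 6.26 and 11.3 FPKM in Cre-positive libraries, against 7.03, 10.9, 12.0 and 5.07 FPKM in Cre-negative libraries. Cre-positive 1 was the highest of all 8, and the other 3 Cre-positive values lay within the Cre-negative range. Means were 14.4 ± 10.6 FPKM in Cre-positive and 8.75 ± 3.24 FPKM in Cre-negative libraries. The log2 change of 0.50 was not called (SE 0.395, 95% interval -0.38 to 1.38, limma adjusted p = 0.350). Without Cre-positive 1 it was 0.09. It was 1.10 within high-Rn45s libraries and -0.33 within low-Rn45s libraries.

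The hairpin gene Mir675, inside H19, was listed at 376, 0.01, 21.8 and 44.6 FPKM in Cre-positive libraries and at 0.01 FPKM, the lowest value of the table, in all 4 Cre-negative libraries. The highest library was again Cre-positive 1. The gene's mean passed the level filter through Cre-positive libraries alone, and its Cre-negative values had no spread. Its call as higher (limma adjusted p = 0.0203) therefore gives no support for a difference. A value for so short a gene can rest on few fragments and shares its reads with H19, and no fold is given against libraries listed at 0.01. Igf2, the paternally expressed growth factor gene of this domain, was not called, with 5.79 ± 1.74 FPKM in Cre-positive and 5.13 ± 1.05 FPKM in Cre-negative libraries (adjusted p = 0.599). Of 6 tested genes within 250 kb of H19, 1 was called higher and 2 lower. The higher one was Tnnt3, the fast skeletal troponin T gene, with 6.95 ± 1.69 FPKM in Cre-positive and 0.142 ± 0.0905 FPKM in Cre-negative libraries (log2 change 2.78), and the lower ones were Prr33 (-1.50) and Mrpl23 (-0.52). They were chosen after their values were seen.

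Meg3 (chr12:109540996-109571729) had 0.915, 1.05, 0.819 and 0.740 FPKM in Cre-positive libraries, against 0.508, 0.537, 0.166 and 0.694 FPKM in Cre-negative libraries. The groups did not overlap, though 0.740 and 0.694 FPKM lie close, and 10.6% of all genes in the table had groups that did not overlap and were higher. Means were 0.880 ± 0.132 FPKM in Cre-positive and 0.476 ± 0.222 FPKM in Cre-negative libraries (SD, n = 4 each). The log2 change was 0.36, with an exact two-sided permutation p of 0.0286, the smallest possible. It was 0.46 within high-Rn45s and 0.21 within low-Rn45s libraries. When all 24341 genes entered the fit it was not called (limma adjusted p = 0.1004), and with genes of at least 0.1 FPKM it was (adjusted p = 0.0412). Even if every fragment came from the longest of its 11 annotated transcripts, the level rests on 13.3 fragments in the library with the fewest.

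Rian (chr12:109603945-109661711), which lies 32216 bases beyond Meg3 and carries snoRNAs, had 1.42, 1.78, 1.63 and 1.74 FPKM in Cre-positive libraries, against 1.09, 1.31, 1.01 and 1.51 FPKM in Cre-negative libraries. Of the Cre-negative libraries, Cre-negative 4 alone exceeded a Cre-positive one. Means were 1.64 ± 0.161 FPKM in Cre-positive and 1.23 ± 0.228 FPKM in Cre-negative libraries. The log2 change of 0.25 was not called (SE 0.111, 95% interval 0.00 to 0.49 before adjustment, limma adjusted p = 0.104), and it was 0.24 within high-Rn45s and 0.21 within low-Rn45s libraries. With every library scaled to 1 sum it was called (0.43, adjusted p = 0.00747), and stood 0.17 above the median of all tested genes.

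Both RNAs were lowest in Cre-negative 3 and highest in Cre-positive 2. The log2 ratio of Meg3 to Rian was -0.91 ± 0.261 in Cre-positive and -1.53 ± 0.720 in Cre-negative libraries (SD, n = 4 each). The difference of 0.62 gave an exact two-sided permutation p of 0.0857, or 0.129 after adjustment over the 3 ratios. Without Cre-negative 3 the difference was 0.26. The other genes of this region on the imprinted list, Dlk1, Rtl1, Mirg, Dio3 and Begain, lay under the level filter and were not tested, with at most 0.350 FPKM in any library. Begain had 0.158 to 0.204 FPKM in Cre-positive libraries and 0.01 to 0.0924 FPKM in Cre-negative libraries, with no overlap. Dio3 had 0.0610 to 0.350 FPKM in Cre-positive libraries and 0.01 to 0.0969 FPKM in Cre-negative libraries, and its groups overlapped. These genes were chosen after their values were seen.

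Kcnq1ot1 had 0.241, 0.288, 0.234 and 0.249 FPKM in Cre-positive libraries, against 0.302, 0.263, 0.404 and 0.328 FPKM in Cre-negative libraries. The groups overlapped through Cre-positive 2 and Cre-negative 2 alone. Means were 0.253 ± 0.0244 FPKM in Cre-positive and 0.324 ± 0.0598 FPKM in Cre-negative libraries, and the log2 change was -0.08 (exact two-sided permutation p = 0.0571). The table gives it the joined locus chr7:143107254-143427042, shared with Kcnq1. Libraries were stranded, but the sources used here do not say if counting used strand, so reads from Kcnq1ot1 and from unspliced Kcnq1 cannot be told apart.

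Kcnq1, a potassium channel gene, was called lower, with 9.87 ± 1.10 FPKM in Cre-positive and 13.7 ± 0.422 FPKM in Cre-negative libraries (log2 change -0.44, limma adjusted p = 0.00255). The log2 ratio of Kcnq1ot1 to Kcnq1 was -5.29 ± 0.243 in Cre-positive and -5.42 ± 0.263 in Cre-negative libraries. Their difference of 0.13 (SE 0.179) gave an exact two-sided permutation p of 0.514, also after adjustment. Leaving out 1 library moved the difference to values between 0.03 (without Cre-negative 2 or without Cre-positive 2) and 0.23 (without Cre-negative 3). Cdkn1c, a cell cycle inhibitor silenced by Kcnq1ot1 on the paternal chromosome, was called lower at 8.61 ± 1.54 FPKM in Cre-positive and 14.9 ± 2.76 FPKM in Cre-negative libraries (-0.73, limma adjusted p = 0.00258). Of 8 tested genes within 250 kb of the joined locus, Kcnq1 included, 4 were called higher and 2 lower. The calls ran in both directions, as over all tested genes, of which 19.7% were called higher and 19.4% lower.

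The list of 36 other imprinted genes had 20 tested members, of which 10 were called higher, 3 lower and 7 not, with a median log2 change of 0.25, beside 19.7% called higher and 19.4% lower over all tested genes. With no level filter 6 were called higher and 2 lower, and within high-Rn45s libraries 5 higher and 2 lower. Peg3, a paternally expressed zinc finger gene, had 3.57 ± 0.469 FPKM in Cre-positive and 1.71 ± 0.246 FPKM in Cre-negative libraries (0.75, limma adjusted p = 3.81e-04). Igf2r, the receptor that takes up Igf2, had 105.8 ± 7.52 FPKM in Cre-positive and 67.0 ± 5.15 FPKM in Cre-negative libraries (0.65, adjusted p = 1.45e-04). Airn, the noncoding RNA antisense to Igf2r, was also called higher (0.54, adjusted p = 0.0111), with the same limit on strand. Ddc, which encodes an enzyme of amine synthesis, was called lower (-0.70, adjusted p = 0.0157). The other lower genes were Kcnq1 and Cdkn1c, which the Kcnq1ot1 window above also counts, as it does Tssc4, called higher. Beside these, fibroblast markers had a sum of 741 to 839 FPKM in Cre-positive and 561 to 647 FPKM in Cre-negative libraries, and their part in the imprinted genes' values was not tested.

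Of 13 tested polycomb, DNA methylation and imprint-control genes, 3 were called higher and 3 lower (median -0.11). Both counts lie near the 19.7% called higher and 19.4% called lower over all tested genes. Dnmt1, the maintenance DNA methyltransferase, was higher with 11.8 ± 0.940 FPKM in Cre-positive and 7.42 ± 0.508 FPKM in Cre-negative libraries (0.60, limma adjusted p = 3.01e-04), and Ehmt2, a histone H3 lysine methyltransferase, was higher by 0.42. Jarid2, a partner of polycomb repressive complex 2, and Ctcf, which insulates Igf2 from its enhancers, were lower (-0.38 and -0.31).

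Gas5 (chr1:161035166-161038537) had 4.05, 4.95, 2.72 and 3.49 FPKM in Cre-positive libraries, against 3.71, 3.91, 3.35 and 3.34 FPKM in Cre-negative libraries. The Cre-positive values spanned the whole Cre-negative range. Means were 3.80 ± 0.936 FPKM in Cre-positive and 3.58 ± 0.284 FPKM in Cre-negative libraries, and the log2 change of 0.05 was not called (SE 0.136, 95% interval -0.25 to 0.35, limma adjusted p = 0.800). It was 0.30 within high-Rn45s and -0.26 within low-Rn45s libraries. Leaving out 1 library gave values between -0.06 (without Cre-positive 2) and 0.17 (without Cre-positive 3), none of them called. Ankrd45, 104175 bases away, was called higher with 6.59 ± 0.565 FPKM in Cre-positive and 1.23 ± 0.355 FPKM in Cre-negative libraries. It was chosen after its values were seen. Of 7 tested genes within 250 kb of Gas5, 1 was called higher and 1 lower.

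Snhg12 (chr4:132308678-132311024) had 4.71, 5.11, 4.34 and 5.11 FPKM in Cre-positive libraries, against 8.44, 4.79, 4.15 and 8.11 FPKM in Cre-negative libraries. The Cre-negative values fell into a high pair (1 and 4) and a low pair (2 and 3), and the Cre-positive values lay near the low pair. Means were 4.82 ± 0.370 FPKM in Cre-positive and 6.37 ± 2.22 FPKM in Cre-negative libraries, and the log2 change of -0.29 was not called (SE 0.188, 95% interval -0.71 to 0.12, limma adjusted p = 0.249). It was -0.37 within high-Rn45s and -0.02 within low-Rn45s libraries. It was -0.16 without Cre-negative 1, -0.17 without Cre-negative 4 and -0.45 without Cre-negative 3 (limma adjusted p = 0.0556), and was not called with any library left out. The snoRNA gene Snora44, carried by Snhg12, had 65.3, 93.0, 62.6 and 54.2 FPKM in Cre-positive libraries, against 55.3, 128.5, 90.8 and 286.2 FPKM in Cre-negative libraries, and was not called (adjusted p = 0.153).

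Among 9 tested noncoding snoRNA host genes other than these, 1 was called higher and 1 lower (median -0.15). Snhg18 was higher in every Cre-positive library, with 10.7 ± 0.592 FPKM in Cre-positive and 5.01 ± 0.686 FPKM in Cre-negative libraries (0.97, limma adjusted p = 2.86e-05). Epb4.1l4aos was called lower, with 3.58 ± 0.345 FPKM in Cre-positive and 5.68 ± 1.54 FPKM in Cre-negative libraries (-0.51, adjusted p = 0.0284).

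Proteins of snoRNA particles gave 5 genes called lower and none higher of 12 tested (median -0.17), beside 19.4% lower over all tested genes. With every library scaled to 1 sum, 2 were called higher and none lower, while 1 was called lower with no level filter and 2 within high-Rn45s libraries. Ruvbl2, an ATPase that helps assemble the particles, had 9.90 ± 0.848 FPKM in Cre-positive and 15.2 ± 2.53 FPKM in Cre-negative libraries (-0.56, limma adjusted p = 0.00424). Gar1 and Dkc1, core proteins of the H/ACA particles that guide pseudouridylation, were called lower (log2 changes -0.50 and -0.46), as was Nop56, a core protein of the C/D particles that guide methylation (-0.29, and 0.00 with libraries scaled to 1 sum). Gas5 RNA is degraded by nonsense-mediated decay. Of 10 genes of that pathway, 2 were called lower and none higher (median -0.11). The lower count lies near the 19.4% called lower over all tested genes, of which 19.7% were called higher. Upf3b, which links the exon junction complex to the decay machinery, had 4.20 ± 1.30 FPKM in Cre-positive and 7.49 ± 2.09 FPKM in Cre-negative libraries (-0.70, adjusted p = 0.0220).

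Of 10 tested other long noncoding RNAs, 1 was called higher and 2 lower (median -0.09). Mhrt, a cardiac RNA antisense to Myh7, had 11.9 ± 1.84 FPKM in Cre-positive and 60.1 ± 12.0 FPKM in Cre-negative libraries (-2.23, limma adjusted p = 3.73e-06), with the same limit on strand. Mir22hg, the host transcript of miR-22, had 9.54 ± 1.36 FPKM in Cre-positive and 5.31 ± 1.75 FPKM in Cre-negative libraries (0.77, adjusted p = 0.00738). The RNA 2900097C17Rik was called lower (-0.29, adjusted p = 0.0442, and 0.02 with libraries scaled to 1 sum).

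**Figure D5:**
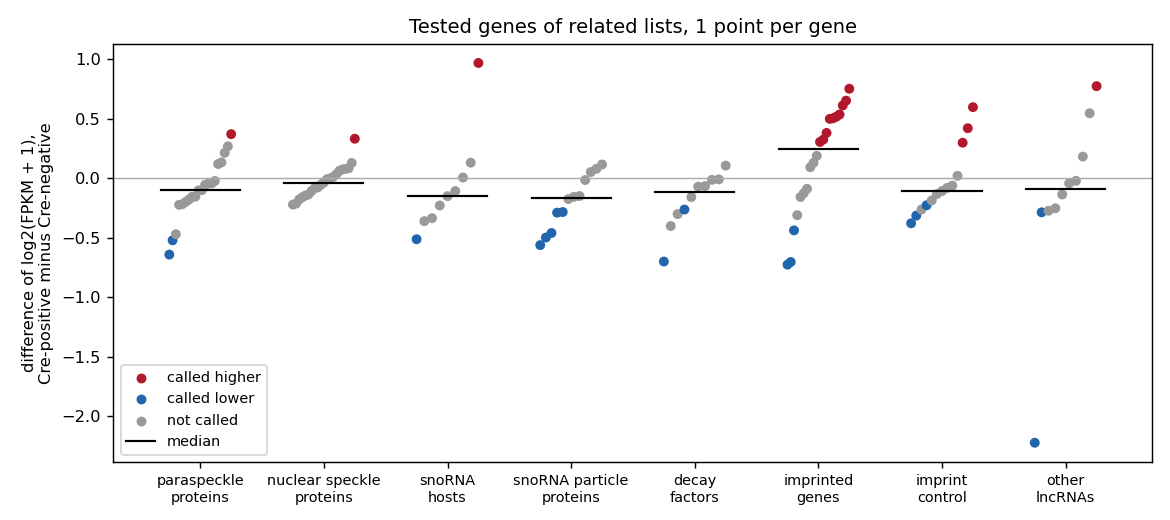
Difference of log2(FPKM + 1), Cre-positive minus Cre-negative, of each tested gene in 8 related lists, with the list's median as a line; red genes were called higher and blue genes lower. Imprinted genes have 10 called higher and 3 lower, and snoRNA particle proteins 5 called lower; the lowest point among other long noncoding RNAs is Mhrt at -2.23.

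The named calls differed in how they held over 20 alternatives of filter, scaling and libraries used, without the low-Rn45s set. Nono, Hnrnph1, Snhg18, Peg3, Igf2r, Cdkn1c, Dnmt1 and Mhrt were called in all 20. The call was lost in 1 for Ruvbl2, Ehmt2 and Mir22hg, 2 for Dkc1, 3 for Jarid2, and 4 for Ddc. It was lost in 6 for Srsf2, 7 for Hnrnph3, 8 for Upf3b, 9 for Epb4.1l4aos and Gar1, 10 for Ctcf, 12 for Nop56 and 13 for 2900097C17Rik.

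Counts over lists moved with the libraries and with the scaling. Leaving out each library gave 8 to 9 imprinted genes called higher and 2 to 4 lower. For snoRNA particle proteins it gave 2 to 4 called lower, with 3 without Cre-positive 1 and 2 without Cre-positive 3, Cre-positive 4, Cre-negative 1 or Cre-negative 4. Paraspeckle proteins had 1 to 4 called lower, decay factors 0 to 3, and imprint-control genes 3 higher and 0 to 3 lower. With libraries scaled to 1 sum, the median of all tested genes was 0.26, and the medians were 0.52 for imprinted genes, 0.13 for snoRNA particle proteins, 0.18 for paraspeckle proteins and 0.26 for nuclear speckle proteins. Under this scaling 12 imprinted genes were called higher and 1 lower, 6 paraspeckle proteins higher and 1 lower, and 5 imprint-control genes and 2 decay factors higher with none lower. Relative to all tested genes, imprinted genes thus stood above and snoRNA particle and paraspeckle proteins below on either scale, as medians.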

How the data were processed

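RNA from ventricular lysates was prepared with a stranded total RNA kit after ribosomal depletion, per the labels' protocols. The authors deposited FPKM values, 1 per gene and library, made with Cufflinks; the submitters' processing notes also name Bowtie2 2.2.6 and mm10. The annotation, strand setting and filter are not stated there. The lowest value, 0.01, filled 32.6% to 39.0% of genes per library. Loci are those of the table with starts counted from 1, and 11866 starts then equalled RefSeq starts of GRCm38, against 680 as written.

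The limma package (3.58.1, R 4.3.3, trended eBayes) was run on log2(FPKM + 1) of the 11688 genes averaging 1 FPKM or more, with Benjamini-Hochberg adjustment. Fold changes on this scale understate those of low genes. RNAs under that level and ratios were tested by exact permutation over 70 assignments with scipy 1.17.1. The scripts were tested on simulated data. Depth was estimated from the single-fragment step in 3664 genes with 1 transcript of 500 to 4000 bases. Fragment numbers cover counting error only. Named genes are the 9 RNAs, Med13 and Med13l, up to 4 called genes with the largest change per list (with fewer than 2 called, the 2 most abundant) and the 3 genes most like each called RNA; other names were chosen after values were seen, and the result of 1 gene the rule names is not reported here. The RNAs and lists were chosen with earlier results of these data known. Alternatives were other pseudocounts, filters, scalings, Rn45s sets, each library left out, and, added after seeing the data, Cre-negative 1 and 2 averaged. The sum used for scaling to 1 sum left out microRNAs, snoRNAs, other small RNAs, Rn45s and genes whose names start with Rpl or Rps.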

Additional observations from a re-analysis of the deposited data

Results flagged for a closer look

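Among 138 groups of 4 libraries checked, 10 held a library whose gap to the nearest of the others exceeded Dixon's 95% critical share of the group's range. Chance flags about 1 in 20 groups.

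Of the RNAs described, the log2 ratio of Meg3 to Rian was -2.60 in Cre-negative 3, against -1.29 to -1.10 in the other Cre-negative libraries. Mir675 was at 376 FPKM in Cre-positive 1, against 0.01 to 44.6 FPKM in the other Cre-positive libraries. Nono was flagged in both groups, at 90.9 FPKM in Cre-positive 1 (others 71.2 to 74.3) and at 63.6 FPKM in Cre-negative 4 (others 57.5 to 58.2). Trappc12 was at 15.3 FPKM in Cre-negative 4, above 13.8 to 13.98 in the others.

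Among targeted genes and markers, Hbb-b1 was highest in Cre-positive 1 at 877 FPKM (others 726 to 738), and Med13l was highest in Cre-negative 3 at 6.13 FPKM (others 4.38 to 4.62). Pln was lowest in Cre-negative 3 at 3028 FPKM (others 3490 to 3561). In Cre-negative 4, Mb was lowest at 12632 FPKM (others 13733 to 13916) and Cnn1 highest at 4.72 FPKM (others 1.34 to 1.83).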

How the results depend on the processing

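Neat1 and Tug1 kept their direction and call under 20 alternatives, the low-Rn45s set not counted, with log2 changes of -1.42 to -1.05 and 0.30 to 0.61. Scaling every library to 1 sum moved the median of all tested genes to 0.26; genes called higher then numbered 5353 and lower 1028, beside 2307 and 2269. Under it Malat1 was called (0.61, adjusted p = 0.00957), Rian was called (0.43, adjusted p = 0.00747) and Kcnq1ot1 was at -0.0118; relative to the moved median, Neat1 was at -1.31, Tug1 at 0.35 and Malat1 at 0.35. Nop56 (0.00252), 2900097C17Rik (0.0194) and Tek (0.0195) turned direction there. Malat1 was also called with quantile normalization (0.58, adjusted p = 0.0221); it was at 0.62 in low-Rn45s libraries, which hold 1 Cre-negative library and give no test of their own. Leaving out each library gave 0.20 to 0.44. A pseudocount of 0.1 put Meg3 at 0.86 and Kcnq1ot1 at -0.26, and Kcnq1ot1 was at -0.0246 in low-Rn45s libraries; Meg3 without a filter stayed at 0.36 (adjusted p = 0.1004). With 1 added to both genes, the log2 ratio of Kcnq1ot1 to Kcnq1 differed by 0.36 (exact permutation p = 0.0286). On that scale Kcnq1ot1 changed by -0.08 and Kcnq1 by -0.44. The added 1 exceeds every Kcnq1ot1 value, so this setting mostly shows the change of Kcnq1. With Cre-negative 1 and 2 averaged, chosen after seeing the data, the log2 ratio of Neat1 to Malat1 differed by -1.62 (exact permutation p = 0.0571, the smallest possible with 4 against 3). The cause of the other shifts was not tested.

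Libraries with the same sample number deviated by correlations of -0.162 to -0.0776, which gave no sign of pairing by these numbers. Whether libraries were paired in another way was not tested. With the replicate block, 1963 genes were called higher and 1899 lower. Few fragments lie behind the values of several RNAs. Even if all came from the longest transcript, the library with the fewest had 13.3 for Meg3, 32.5 for Snhg12, 45.1 for Rian and 46.4 for Gas5. Small differences of these RNAs may be missed at this depth, which was not tested.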
